A study of Mus musculus with 45 samples.

Results

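The glycolysis enzymes followed here are the products of 10 genes, Hk1, Hk2, Pfkl, Pfkm, Pfkp, Aldoa, Pgk1, Eno1, Pkm and Ldha, out of 55401 genes counted in translating ribosome affinity purification (TRAP) RNASeq of mouse kidney. The genes were taken by name, and the question put to them was whether the shift toward glycolysis described in polycystic kidneys could be seen at an age before cysts had formed. All 10 were present in both count tables and in both TPM tables, and all 10 passed the filter on low counts in both sexes, so no member dropped out of a test.

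TRAP uses an EGFP tag on the ribosomal protein L10a to pull down ribosomes and reads the mRNA on them. All 45 mice carried Pax8rtTA, which is active along the kidney tubule, TetOCre, and the conditional R26 EGFP-Rpl10a allele, and all were given oral doxycycline from postnatal day 28 to day 42. Kidneys were taken at 7 weeks, on day 49. Noncystic mice, titled as wild type in the labels, were Pkd1 fl/+ and so carried 1 floxed Pkd1 allele with the Cre (8 males, 7 females). Pkd1KO mice were Pkd1 fl/fl (7 males, 8 females), and Pkd1KO+ciliaKO mice were Pkd1 fl/fl; Kif3a fl/fl and so lost polycystin-1 together with a motor subunit needed for cilia (9 males, 6 females). The tag is made only in cells where Cre has acted, so the pull-down is aimed at ribosome-bound mRNA of recombined tubule cells, with some mRNA of other cells beside it. The values do not describe enzyme protein, enzyme activity or lactate.

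Glycolysis splits glucose into pyruvate in the cytosol. Hexokinases trap glucose as its phosphate, phosphofructokinase makes the committing step, aldolase splits the sugar, phosphoglycerate kinase and pyruvate kinase yield ATP, enolase lies between them, and lactate dehydrogenase reduces pyruvate to lactate. In the kidney the proximal tubule lives mainly on oxidation of fatty acids and makes glucose, whereas distal segments use glycolysis more, and raised glycolysis with lactate production has been described in polycystic disease.

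The libraries held 80874556 to 132958186 counts, with a median of 103070359, and a level of 3 counts, taken as the floor, corresponded to 0.0226 to 0.0371 CPM (counts scaled to library size) and covers counting error only. The least abundant member, Hk2, had at least 196 counts in every mouse, so depth did not limit any member. The replicates were separate mice, and no pair of libraries within a group matched within sampling noise. Kif3a, the targeted ciliary gene, was at 4.90 to 7.45 CPM in Pkd1KO+ciliaKO males against 13.8 to 29.2 CPM in the other males. In females it was at 6.69 CPM in the library labelled noncystic replicate 5 and at 20.7 CPM in the library labelled Pkd1KO+ciliaKO replicate 6. Both went against their labels. For each female comparison the count of called enzymes and the values it turns on are given with and without these libraries. Pkd1 was counted over the whole gene, so its level does not measure the deletion by itself. It ranged from 33.2 to 84.9 CPM in males and from 33.4 to 64.2 CPM in females, and the groups overlapped. Noncystic replicate 3 and Pkd1KO+ciliaKO replicates 6 and 8 stood apart from the other males on the first principal component (scores -20.0 to -3.94, against 8.14 to 35.9). Females lay at -30.1 to -15.5 on it, so Pkd1KO+ciliaKO male replicates 6 and 8, at -19.5 and -20.0, fell among the females. Every male, these included, had at least 3882 counts of the Y-linked gene Ddx3y, and every female at most 8. Among males Pkd1KO replicate 4, at 8.14, was the next lowest on the first component, near the mouse at 12.7. It stood apart on the second component (-50.2, against -30.7 to 23.2 in the other males). For each male comparison the count of called enzymes and the values it turns on are given with and without these 4. Defining markers of the proximal tubule, of the loop and distal segments and of the collecting duct were present in every group. None of the 9 proximal tubule markers, which include Lrp2 and Cubn, was at 0, and their summed level was 7405 to 17026 CPM over the 45 mice.

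Promoter sequences are shown for the members on which the comparisons turn, Ldha and Pfkm, and for Pgk1, a much used example of a hypoxia-induced glycolytic gene. The letters ACGTG form the core bound by hypoxia-inducible factor, the regulator through which low oxygen raises many of these genes. Each run holds the 250 bases before a RefSeq start site on GRCm38.p6, written 5′ to 3′ on the gene's strand, and capitals mark ACGTG on either strand, so that CACGT is a match on the other strand and CACGTG counts as a match on both.
Ldha, first start, chr7:46845554-46845803, plus strand: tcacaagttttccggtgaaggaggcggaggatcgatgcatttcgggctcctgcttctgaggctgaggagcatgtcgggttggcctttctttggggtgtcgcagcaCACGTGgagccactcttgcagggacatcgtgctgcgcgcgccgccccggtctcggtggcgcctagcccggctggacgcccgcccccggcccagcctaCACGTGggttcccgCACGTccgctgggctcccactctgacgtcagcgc
Pfkm, first start, chr15:98092339-98092588, plus strand: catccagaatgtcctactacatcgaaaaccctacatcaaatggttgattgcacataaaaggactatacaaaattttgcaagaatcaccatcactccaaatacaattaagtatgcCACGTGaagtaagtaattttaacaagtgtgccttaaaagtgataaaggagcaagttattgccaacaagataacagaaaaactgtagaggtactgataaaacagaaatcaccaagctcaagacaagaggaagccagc
Pfkm, second start, chr15:98108221-98108470, plus strand: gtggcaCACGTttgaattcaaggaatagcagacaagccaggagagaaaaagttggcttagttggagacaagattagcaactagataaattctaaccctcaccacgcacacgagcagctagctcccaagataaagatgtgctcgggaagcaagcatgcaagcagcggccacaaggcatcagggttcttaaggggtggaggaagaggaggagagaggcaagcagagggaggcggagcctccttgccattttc
Pgk1, only start listed, chrX:106186850-106187099, plus strand: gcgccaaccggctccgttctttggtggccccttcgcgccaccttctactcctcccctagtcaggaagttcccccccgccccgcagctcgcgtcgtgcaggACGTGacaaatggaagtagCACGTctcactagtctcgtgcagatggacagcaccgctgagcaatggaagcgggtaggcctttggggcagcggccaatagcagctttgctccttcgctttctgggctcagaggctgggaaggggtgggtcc
The first Ldha start held 5 matches in this window, the first Pfkm start 2, the second Pfkm start 1 and Pgk1 2, while the second Ldha start and the remaining Pfkm starts, not shown, held 0. Over all 20 listed start sites of the 10 members, 8 held ACGTG on either strand in these 250 bases, compared with 16.6% of the 32851 RefSeq start sites, searched over the same 250 bases. The related letters GCGTG stood in 9 of the 20, compared with 28.2%, and the palindrome CACGTG in 2, compared with 6.02%. A match describes letters in the window and no more, and windows of starts that lie close together share bases.

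To compare levels between genes, TPM values, which correct for library size and transcript length, were used. The TPM tables were normalised separately for each sex, so the orders below are within a group. The order of the mean TPM was the same in all 6 groups, with Aldoa highest, then Pgk1, Ldha, Eno1, Pkm, Hk1, Pfkm, Pfkl, Pfkp and Hk2. In noncystic males Aldoa was at 1068 ± 150.1 TPM (SD, n = 8), Pgk1 at 750.5 ± 92.8, Ldha at 720.1 ± 27.0 and Eno1 at 427 ± 101. Pkm was at 239 ± 101 TPM, Hk1 at 112 ± 44.3, Pfkm at 99.2 ± 23.7, Pfkl at 49.5 ± 12.3, Pfkp at 26.8 ± 7.36 and Hk2 at 2.10 ± 1.01 TPM in the same mice. Several neighbours in this order were not separated by the spread among mice. Pgk1 exceeded Ldha in 5 of 8 noncystic males, and Hk1 exceeded Pfkm in 7 of 8. The step from Ldha down to Eno1 and the step from Pfkp down to Hk2 were not bridged by any noncystic male.

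At 5 steps of the pathway 1 isozyme mRNA held most of the TPM, and at the last of them the member was the lesser form. Hk1 made up 94.7% to 96.6% of the summed hexokinase TPM as a group mean, and Hk2, the insulin- and hypoxia-responsive form of muscle and tumours, made up 1.79% to 2.43%. Pfkm, the muscle-type subunit of phosphofructokinase, made up 56.5% ± 2.5 (SD, n = 8) of phosphofructokinase TPM in noncystic males, the liver-type Pfkl 28.2% ± 1.5 and the platelet-type Pfkp 15.3% ± 1.84. Eno1 made up 98.1% to 98.3% of enolase TPM as a group mean, and Pkm 88.5% to 91.9% of pyruvate kinase TPM. Ldha made up 19.8% ± 0.943 of lactate dehydrogenase TPM in noncystic males and 14.2% ± 1.08 (n = 7) in noncystic females, the remainder being Ldhb, the heart-type subunit. The M1 and M2 forms of Pkm are made by alternative splicing and share 1 count in these tables, so they were not told apart.

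**Figure D1:**
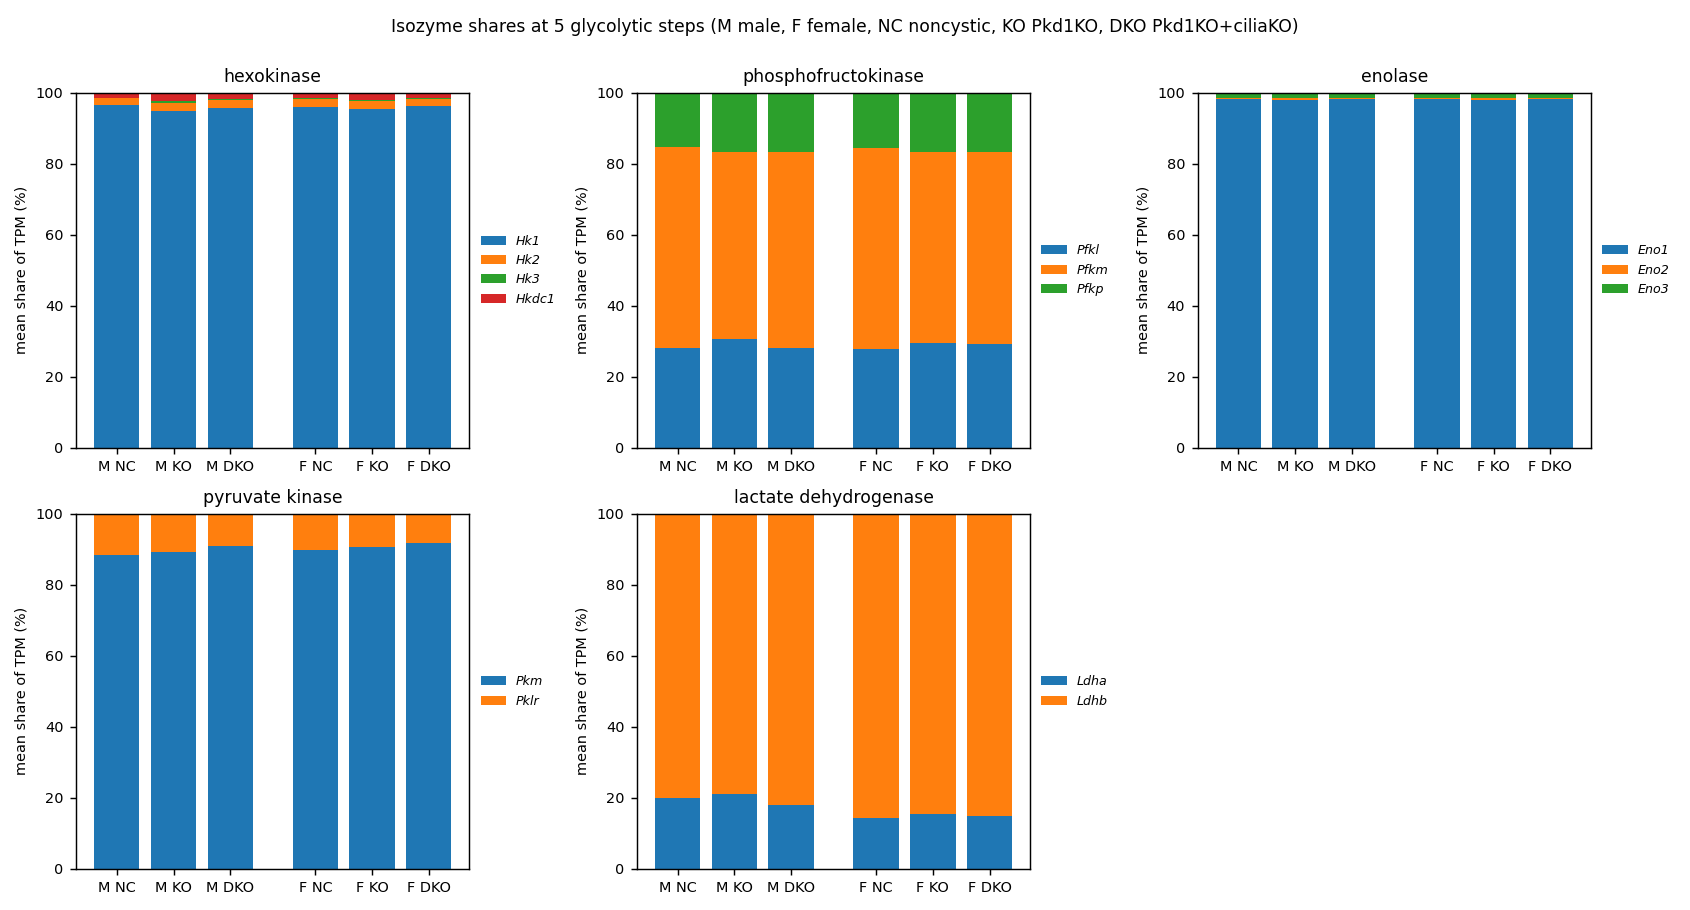
Share of the summed TPM of each isozyme family (y axis, percent, mean over the mice of a group, bars starting at 0) that belonged to each gene, for the 6 groups of genotype and sex (x axis). Hk1, Eno1 and Pkm hold most of their families in every group, whereas Ldhb holds most of its family.

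Differences were tested on counts. The main question was how Pkd1KO kidneys differed from noncystic kidneys and from kidneys that also lost Kif3a, within each sex. A gene was called at an adjusted p of at most 0.05 with edgeR's quasi-likelihood test, adjusted after Benjamini and Hochberg over all genes tested, and levels are given as CPM normalised over the 45 mice. Shares of all genes are given for the edgeR calls with all mice. Counts at an unadjusted p, by other tests or with mice left out have no such share beside them. They are given as a description. Since these are whole-kidney pull-downs, fewer recombined cells of a segment and less mRNA per cell cannot be told apart in any of the values that follow.

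In Pkd1KO males, 1 of the 10 enzymes was called against noncystic males, and it fell. Of the 15991 genes tested in this comparison, 6.3% were called, 4.05% higher and 2.25% lower. The gene was Pfkm. No enzyme was called higher, 8 of the 10 had a log2 fold change below 0, and the median over the 10 was -0.19, where the median of all genes tested was -0.01. None of the 10 had noncystic and Pkd1KO males without overlap, as 2.1% of all genes did. Without the 4 males that stood apart 0 of the 10 were called, 8 were still below 0 and the median was -0.09, with Hk1 at -0.10, Pfkl at -0.10, Pkm at -0.08, Eno1 at -0.07, Pfkp at -0.17 and Aldoa at -0.21 (edgeR adjusted p = 0.132 for Aldoa).

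Pfkm (ENSMUSG00000033065.14, chr15:98092589-98132451, plus strand, GRCm38) was at 85.5 CPM in the lowest noncystic male, 109.9 at the median and 143 in the highest. In Pkd1KO males it was at 71.0, 81.1 and 102 CPM, and in Pkd1KO+ciliaKO males at 93.0, 108 and 170.4 CPM. The Pkd1KO males thus lay at the low end of both other groups and overlapped each of them, 1 Pkd1KO male at 102 CPM reaching well into the noncystic range. Pfkm fell by 0.42 on the log2 scale against noncystic males (SE 0.103, 95% confidence interval -0.64 to -0.20, edgeR adjusted p = 0.0226). It also fell by 0.52 against Pkd1KO+ciliaKO males (SE 0.12, interval -0.77 to -0.27, adjusted p = 0.0216). The Pkd1KO+ciliaKO males differed from noncystic males by 0.10 (SE 0.119, interval -0.15 to 0.35, adjusted p = 0.647). The first and second of these comparisons share the Pkd1KO males.

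**Figure D2:**
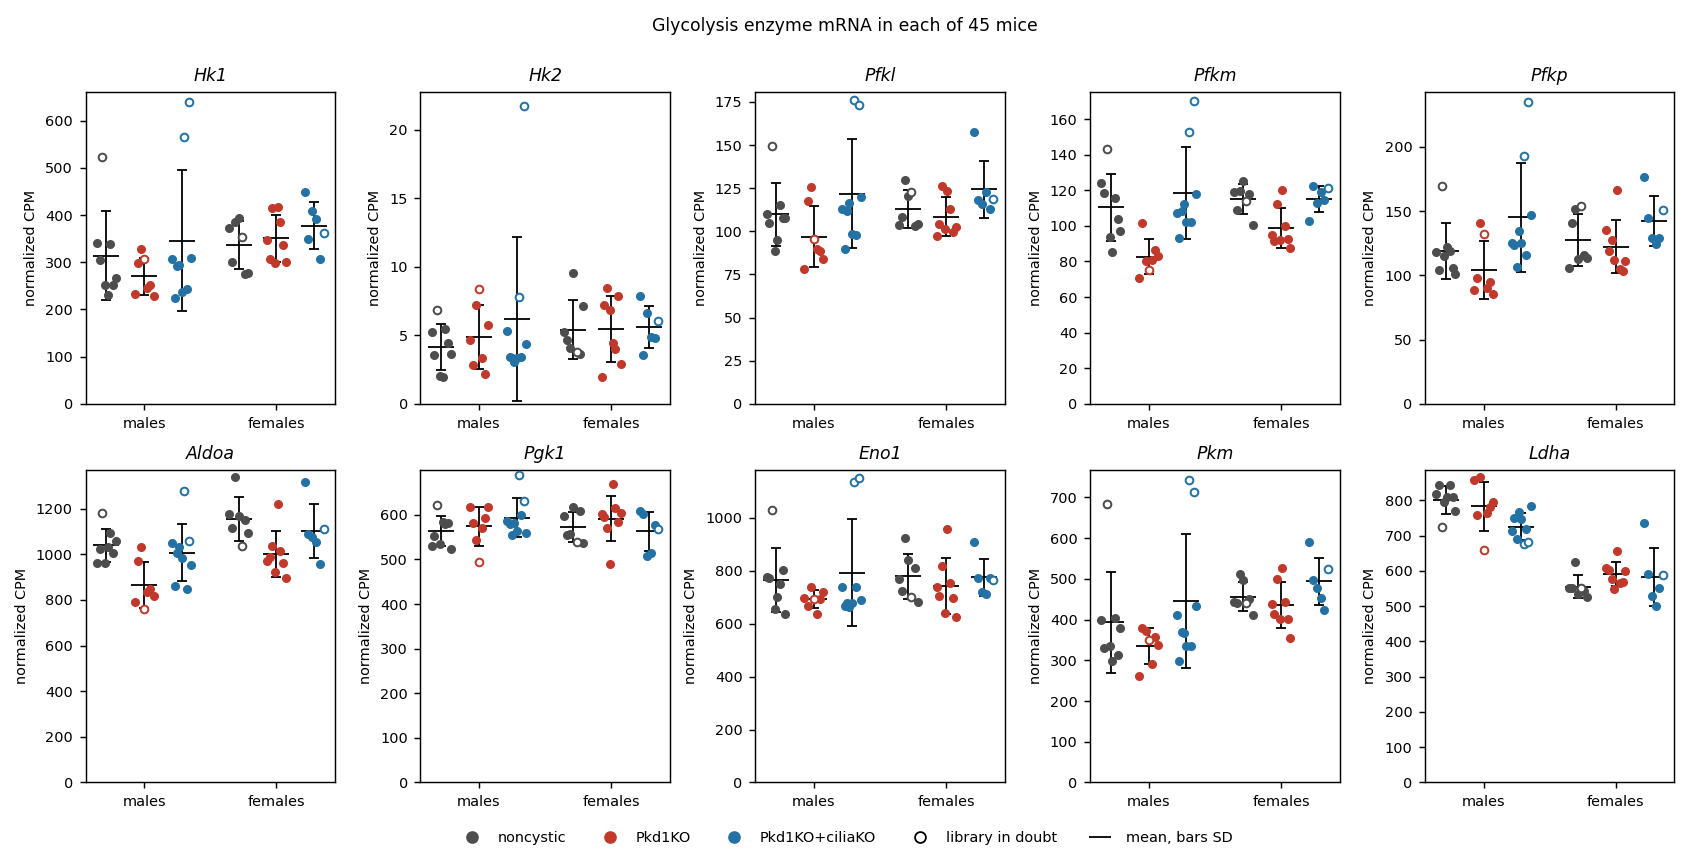
Normalised CPM of each of the 10 enzymes (y axis of each panel, starting at 0) in every mouse (points, open for libraries in doubt), with the group mean and SD (black bars), for the 6 groups of genotype and sex (x axis). Pfkm is lower in Pkd1KO males than in most mice of the other male groups, Ldha is higher in noncystic males than in noncystic females, and in many panels a few males lie far above their group.

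The 4 males that stood apart bore on this result. Without them Pfkm was at a log2 fold change of -0.33 against noncystic males with an edgeR adjusted p of 0.0580, no longer called, and at -0.34 against Pkd1KO+ciliaKO males with an adjusted p of 0.0197, still called. With noncystic replicate 3 alone left out the value against noncystic males was -0.35 (adjusted p = 0.0280), and with Pkd1KO replicate 4 alone left out -0.39 (adjusted p = 0.0436), so the call was kept with either of them alone left out. With any 1 male left out, the call against noncystic males was kept in 15 of 15 fits and the call against Pkd1KO+ciliaKO males in 16 of 16. Of the 4 males, all but Pkd1KO replicate 4 carried the lowest mouse numbers of the series in the labels. Both other male groups thus held such mice and the Pkd1KO males held none. What the numbers stand for is not given in the labels, and their part in these values was not tested. Pfkm overlaps Senp1 on the opposite strand and the antisense gene Gm26513, and whether the counting used strand is not given in the sources used here, so part of its count could belong to these genes.

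Markers of tubule segments moved in the same males. The summed level of the 5 thick ascending limb markers had a median of 3444 CPM in noncystic males (range 2458 to 4653), 2225 in Pkd1KO males (2127 to 3550) and 3621 in Pkd1KO+ciliaKO males (2491 to 4402). All 5 had a log2 fold change below 0 in Pkd1KO males against each of the other groups, and Slc12a1, the salt cotransporter of that segment, was called lower in both comparisons, with log2 fold changes of -0.72 and -0.73. The 9 proximal tubule markers had a median sum of 15374 CPM in noncystic males (9962 to 17026), 11843 in Pkd1KO males (7701 to 14535) and 11013 in Pkd1KO+ciliaKO males (7405 to 13378). The sum of the 5 macrophage markers was 67.0 to 95.7 CPM in noncystic males, 93.4 to 202 CPM in Pkd1KO males and 48.3 to 91.8 CPM in Pkd1KO+ciliaKO males, and Csf1r made up 85.9% of it over the 45 mice. Csf1r was called higher in Pkd1KO males against both groups (log2 fold change 0.35 and 0.77). It was called lower in Pkd1KO+ciliaKO males against noncystic males (-0.42). In that comparison C1qa (0.48), Adgre1 (0.71) and Cd68 (0.16) were above 0 and Cd14 (-0.12) was below, none of them called. Between these 2 groups the sum thus followed Csf1r and not the whole list. In Pkd1KO against noncystic males the other markers were above 0 too, C1qa at 1.91, Adgre1 at 1.63, Cd68 at 1.38 and Cd14 at 0.40. So they were in Pkd1KO against Pkd1KO+ciliaKO males, at 1.43, 0.92, 1.23 and 0.52 in the same order. None of these values was called. Pkd1KO replicate 4 held the sum of 202, the other Pkd1KO males being at 93.4 to 126 CPM, and C1qa ran from 3.13 to 52.3 CPM in that group. The part of these shifts in the Pfkm result was not tested.

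The other phosphofructokinase subunits did not pass the test in Pkd1KO males. Pfkl (chr10:77986947-78010083, minus strand) was at 88.7, 108 and 149 CPM in noncystic males (lowest, median, highest) and at 78.3, 89.6 and 126 in Pkd1KO males, a log2 fold change of -0.18 (SE 0.116, edgeR adjusted p = 0.385). Pfkp (chr13:6579768-6648777, minus strand), which overlaps Pitrm1 on the other strand, was at 101, 117 and 169.7 CPM in noncystic males and at 85.7, 95 and 141 in Pkd1KO males, a log2 fold change of -0.19 (SE 0.129, adjusted p = 0.413). Both groups overlapped widely for both genes. The summed TPM of the 3 subunits was 176 ± 42.1 in noncystic males (SD, n = 8), 137 ± 18.9 in Pkd1KO males (n = 7) and 209.5 ± 74.7 in Pkd1KO+ciliaKO males (n = 9), and Pfkm made up 56.5% ± 2.5, 52.7% ± 4.40 and 55.1% ± 1.23 of it. The ranges of this share overlapped, from 52.4% to 60.2% in noncystic and from 45% to 56.7% in Pkd1KO males.

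The hexokinases, which open the pathway, did not pass the test in any of the 6 genotype comparisons. Hk1 (chr10:62268855-62379908, minus strand) was at 230.0, 286 and 523 CPM in noncystic males and at 229, 252 and 327 CPM in Pkd1KO males, which shared the same lower end. Its log2 fold change was -0.22 (SE 0.155, edgeR adjusted p = 0.439). Hk2 (chr6:82725025-82774454, minus strand) was at 1.94, 4.04 and 6.85 CPM in noncystic males and at 2.15, 4.64 and 8.38 CPM in Pkd1KO males. Hk2 was the only member besides Pgk1 whose log2 fold change in this comparison was above 0, at 0.24 (SE 0.315, 95% confidence interval -0.42 to 0.91, adjusted p = 0.699), and its interval was the widest of the 10. In Pkd1KO+ciliaKO males Hk2 was at 3.09, 3.43 and 21.7 CPM, and its log2 fold change of 0.57 against noncystic males (interval -0.24 to 1.39, adjusted p = 0.383) included 1 mouse at 21.7 CPM while the others were at 3.09 to 7.79.

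Aldoa came close to the threshold. Aldoa (ENSMUSG00000030695.16, chr7:126795234-126800751, minus strand) was at 960.2, 1029 and 1181 CPM in noncystic males and at 762, 833 and 1033 CPM in Pkd1KO males. Most Pkd1KO males, 5 of 7, lay under the lowest noncystic male, and the highest reached the noncystic median. The log2 fold change was -0.27 (SE 0.078, 95% confidence interval -0.43 to -0.10, edgeR adjusted p = 0.0508), so it was not called, but DESeq2 called it (adjusted p = 0.00656). Against Pkd1KO+ciliaKO males, at 847, 1007 and 1276 CPM, it was -0.22 (SE 0.0915, adjusted p = 0.187). Aldoa overlaps Fam57b on the opposite strand, and a second locus of the same symbol held at most 0.431 CPM and was not used.

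The enzymes of the later steps were not called in Pkd1KO males. Pgk1 (chrX:106187100-106203699, plus strand) was at 523, 566 and 623 CPM in noncystic and 494, 582 and 618 CPM in Pkd1KO males, and its log2 fold change of 0.02 had a 95% confidence interval of -0.11 to 0.16. Eno1 (chr4:150236721-150248879, plus strand) was at 637, 761 and 1028 CPM in noncystic and 637, 692 and 739.6 CPM in Pkd1KO males, a log2 fold change of -0.15 (SE 0.0892, edgeR adjusted p = 0.359). For Eno1 the lowest mice of both groups were at the same level, while the noncystic median lay above the highest Pkd1KO male. Pkm (chr9:59656368-59679375, plus strand), the pyruvate kinase of most tissues and of tumours, was at 299, 357 and 684 CPM in noncystic and 261, 351 and 379 CPM in Pkd1KO males, a log2 fold change of -0.23 (SE 0.155, adjusted p = 0.408). Ldha (ENSMUSG00000063229.15, chr7:46841475-46855627, plus strand), the step that makes lactate, was at 724, 809.7 and 844 CPM in noncystic and 658, 781 and 867 CPM in Pkd1KO males. Its log2 fold change was -0.04 with an interval of -0.18 to 0.10, so these counts put any rise of Ldha in Pkd1KO males at no more than 0.10 on the log2 scale at that confidence. Pgk1, Eno1 and Aldoa have near-identical processed copies in the mouse genome, and how reads that match several places were counted is not given in the sources used here.

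Against Pkd1KO+ciliaKO males, Pkd1KO males again had 1 enzyme called, Pfkm, lower. In this comparison 3.77% of the 15991 genes tested were called, 1.99% higher and 1.78% lower. Of the 10 members, 9 had a log2 fold change below 0 and 5 an unadjusted p under 0.05, and the median was -0.34 where that of all genes tested was 0.01. No member was without overlap between these groups, as 1.11% of all genes were. Pfkp was at -0.47 (SE 0.165, edgeR adjusted p = 0.119), Pkm at -0.41 (SE 0.185, 0.23), Hk1 at -0.36 (SE 0.209, 0.365), Pfkl at -0.33 (SE 0.148, 0.228) and Eno1 at -0.20 (SE 0.127, 0.41). Ldha was the member above 0, at 0.11 (SE 0.0646, adjusted p = 0.367). Without the 4 males that stood apart, the median over the 10 was -0.09, and the values were nearer 0 for Hk1 (-0.05), Eno1 (-0.01), Pkm (-0.14) and Pfkl (-0.14), while Pfkp was at -0.33 (adjusted p = 0.110). Pkd1KO+ciliaKO replicates 6 and 8 held the highest value of their group for 9 of the 10 members between them.

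**Figure D3:**
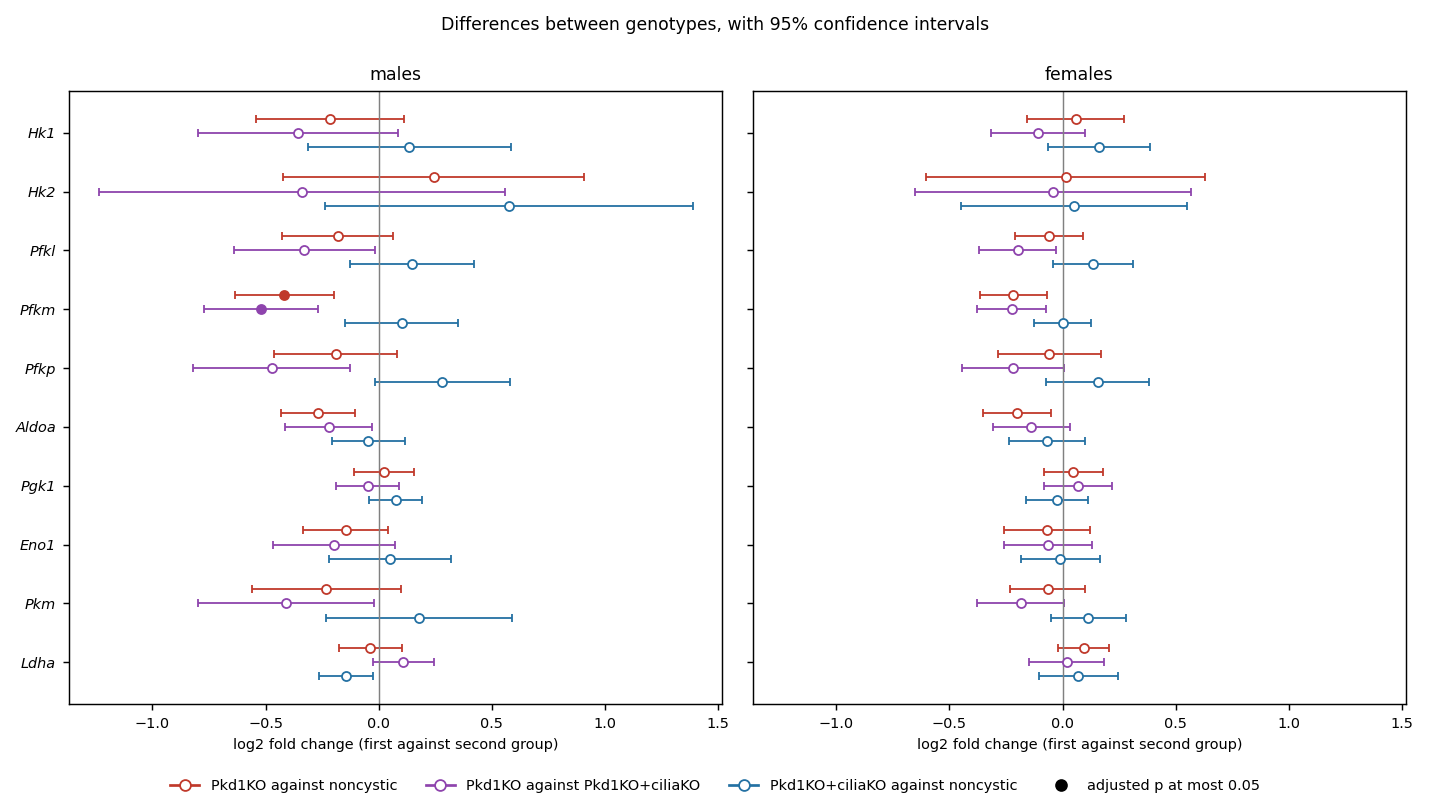
Log2 fold change (x axis, points) with its 95% confidence interval (lines) of each enzyme (y axis) in the 3 genotype comparisons, for males and for females, with called values filled. Pfkm in both comparisons of Pkd1KO males is called, and the intervals of Hk2 are the widest.

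Pkd1KO+ciliaKO males against noncystic males gave no call among the 10 by edgeR, while 8.89% of all genes tested were called, 5.63% higher and 3.26% lower, and for 1.09% the groups did not overlap. By DESeq2 1 of the 10 was called, Ldha, lower (log2 fold change -0.16, adjusted p = 0.0128), and 1 of the 10 had an unadjusted edgeR p under 0.05, Ldha again. Ldha was at 675, 719 and 785 CPM in Pkd1KO+ciliaKO males, so that its median lay under the lowest noncystic male at 724, and the edgeR log2 fold change was -0.14 (SE 0.0571, 95% confidence interval -0.26 to -0.02, adjusted p = 0.125). The other 9 members ranged from -0.05 for Aldoa to 0.57 for Hk2, and the median over the 10 was 0.12. Pkm was at 299, 369.9 and 743 CPM in these males, its 2 highest values, 743 and 714 CPM, being those of replicates 6 and 8. Without the males that stood apart 0 of the 10 were called and the median over the 10 was -0.00, with Ldha at -0.14 (SE 0.0490, adjusted p = 0.0586), Hk2 at -0.01 and Pkm at 0.05.

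In females no enzyme was called between any genotypes by edgeR. Between Pkd1KO and noncystic females 3.34% of 15968 genes were called, 2.02% higher and 1.32% lower, and 1.08% did not overlap. Of the 10 enzymes 0 were free of overlap, and 2 of the 10 members had an unadjusted p under 0.05. DESeq2 called 0 of the 10 in this comparison. Pfkm was at 100.4, 118 and 125 CPM in noncystic females, at 87.7, 93.8 and 120.0 in Pkd1KO females and at 103, 117 and 122 in Pkd1KO+ciliaKO females. The Pkd1KO females were again mostly low, and 2 of the 8, at 112 and 120.0 CPM, lay within the ranges of both other groups, the second of them above both medians. The log2 fold change was -0.22 (SE 0.0695, 95% confidence interval -0.36 to -0.07, edgeR adjusted p = 0.102) against noncystic females. Aldoa was at 1034, 1150.2 and 1339 CPM in noncystic and 895, 979 and 1218 CPM in Pkd1KO females, a log2 fold change of -0.20 (SE 0.0715, interval -0.35 to -0.05, adjusted p = 0.141). With Pkd1KO female replicate 5 left out, both were called, Pfkm at -0.26 (adjusted p = 0.0227) and Aldoa at -0.24 (adjusted p = 0.0364). Without the library of this comparison whose Kif3a went against the label 0 of the 10 were called, and Pfkm was at -0.22 (adjusted p = 0.134) and Aldoa at -0.23 (adjusted p = 0.112).

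Ldha in Pkd1KO females was at 549.5, 589 and 657 CPM against 525, 551 and 626 CPM in noncystic females. The noncystic female at 626 CPM lay far above the other noncystic females, which were at 525 to 552 CPM, and apart from it the groups overlapped only through the lowest Pkd1KO female. The log2 fold change was 0.09 (SE 0.0538, edgeR adjusted p = 0.43). Hk1 was at 0.06, Hk2 at 0.01, Pgk1 at 0.05, Pfkl and Pfkp at -0.06, Eno1 and Pkm at -0.07 on the same scale, with adjusted p between 0.768 and 0.989. The median over the 10 members was -0.06, where that of all genes tested was -0.00. Without the noncystic female against its label Ldha was at 0.09 (adjusted p = 0.480) and the median was -0.05.

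Between Pkd1KO and Pkd1KO+ciliaKO females, where 11.7% of the genes tested were called, 7.05% higher and 4.65% lower, and 2.96% did not overlap, 0 of the 10 enzymes passed the edgeR test and 2 had an unadjusted p under 0.05. Pfkm was at -0.22 (SE 0.072, 95% confidence interval -0.38 to -0.07, edgeR adjusted p = 0.0545), and DESeq2 called it (adjusted p = 0.0328). Without the Pkd1KO+ciliaKO female against its label 0 of the 10 were called, and the edgeR value of Pfkm was -0.21 (adjusted p = 0.102). Pfkl was at -0.20 (SE 0.0809, adjusted p = 0.122), Pfkp at -0.22 (SE 0.106, 0.194) and Pkm at -0.18 (SE 0.0908, 0.199). Pgk1 was at 0.07 and Ldha at 0.02, the 2 members above 0. The summed thick ascending limb level had a median of 3604 CPM in Pkd1KO females (2953 to 4655) and 4625 in Pkd1KO+ciliaKO females (3758 to 5366), and its part in these values was not tested. With Pkd1KO replicate 3 or Pkd1KO+ciliaKO replicate 1 left out 1 member was called, and with Pkd1KO replicate 5 left out 2 were, Pfkm and Pfkp.

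Between Pkd1KO+ciliaKO and noncystic females 2.54% of the genes tested were called, 0.67% higher and 1.87% lower, 1.7% did not overlap, and 0 of the 10 enzymes were called, by edgeR and by DESeq2 alike, with 0 at an unadjusted p under 0.05. The log2 fold changes ran from -0.07 for Aldoa to 0.16 for Hk1 and Pfkp, with Pfkm at 0.00 (SE 0.0592, edgeR adjusted p = 0.991). On log2(TPM + 1) limma called 2, Pfkl and Pkm, higher. Without the 2 females against their labels 0 of the 10 were called by edgeR, the median over the 10 went from 0.06 to 0.02, and the values ran from -0.10 for Aldoa to 0.19 for Pfkp, with Pfkm at -0.02.

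Pfkm was called in males and not in females, so the difference between the sexes was tested itself, in a fit of all 45 mice. None of the 10 enzymes passed the test for a sex difference in any genotype comparison, where 0.0126%, 0.221% and 0.0316% of 15828 genes did for Pkd1KO against noncystic, Pkd1KO against Pkd1KO+ciliaKO and Pkd1KO+ciliaKO against noncystic. The male log2 fold change of Pfkm was lower than the female one by a difference of -0.20 against noncystic mice (edgeR adjusted p = 0.797) and of -0.30 against Pkd1KO+ciliaKO mice (SE 0.146, adjusted p = 0.621). Over the 3 sex differences 0, 1 and 1 of the 10 had an unadjusted p under 0.05, Pfkm in the second and Ldha, at -0.21, in the third.

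Ldha set the sexes apart in noncystic mice. It was at 724, 809.7 and 844 CPM in noncystic males and at 525, 551 and 626 CPM in noncystic females, and every male lay above every female. The log2 difference was 0.53 (SE 0.0617, 95% confidence interval 0.41 to 0.66, edgeR adjusted p = 8.02e-09), higher in 8 of 8 males. Of all genes tested 27.4% were called between noncystic males and females, 14.1% higher in males and 13.3% lower, and 5.93% did not overlap, so a call in this comparison was common. The other 9 enzymes were not called, with log2 differences below 0, among them Hk2 at -0.39, Pkm at -0.22 and Aldoa at -0.15. Without the 6 libraries in doubt Ldha was at 0.55, and Pkm at -0.39 (adjusted p = 0.00198) and Aldoa at -0.20 (adjusted p = 0.0310) were called lower in males.

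**Figure D4:**
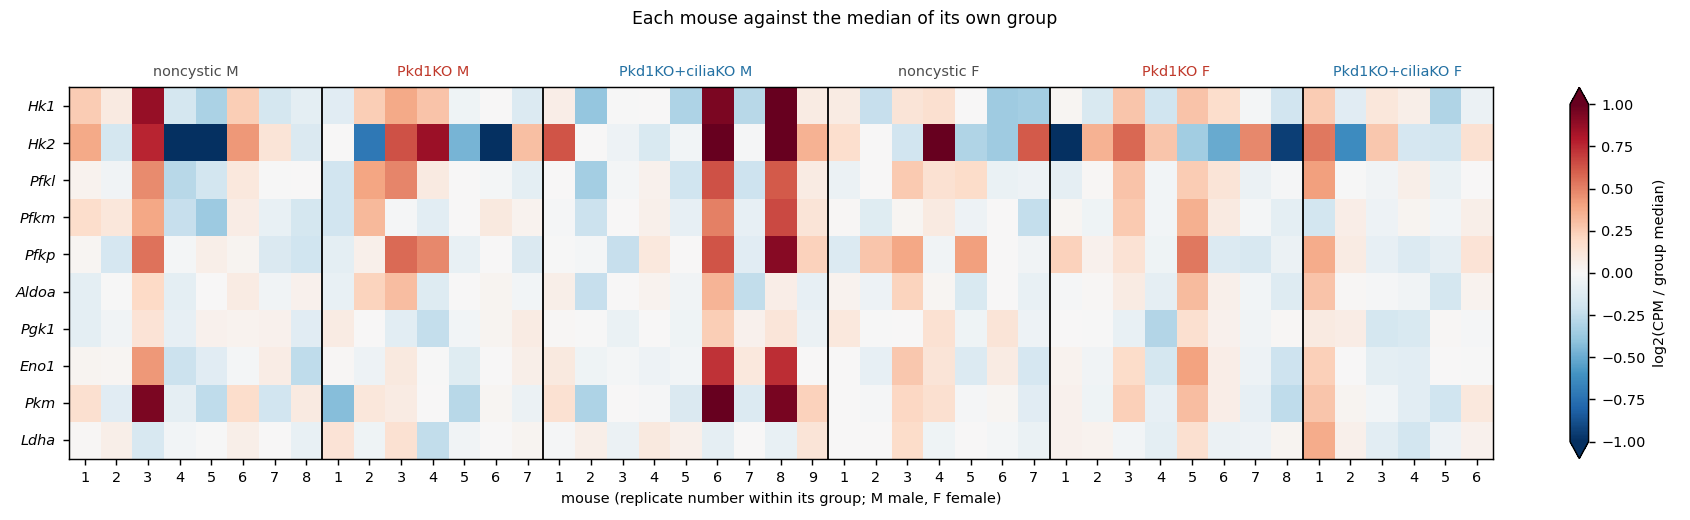
Log2 ratio of each enzyme's CPM to the median of its own group (colour) for every mouse, ordered by group. Noncystic male replicate 3 and Pkd1KO+ciliaKO male replicates 6 and 8 are above their group for most enzymes and at or below it for Ldha.

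The share of lactate dehydrogenase TPM that was Ldha also set noncystic males and females apart. Ldha made up 18.1% to 21.1% in noncystic males and 12.6% to 15.6% in noncystic females, with no overlap, and 21.1% ± 1.83 in Pkd1KO males and 18% ± 1.87 in Pkd1KO+ciliaKO males (SD, n = 7 and 9). Ldhb, the subunit that predominates in tissues that oxidise lactate, was at 1415, 1536 and 1671 CPM in noncystic males and at 1418, 1605 and 1764 CPM in noncystic females, a log2 difference of -0.06 (SE 0.0700, edgeR adjusted p = 0.590). The proximal tubule marker sum was also higher in noncystic males, at 9962 to 17026 CPM against 9369 to 12629 CPM in noncystic females, and 3 of its 9 genes, Slc27a2, Slc34a1 and Slc22a6, were called higher in males. Its part in the Ldha difference was not tested.

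Enzymes varied together from mouse to mouse. Noncystic male replicate 3 held the highest level of its group for 9 of the 10 members and the lowest for Ldha, with a median log2 ratio to the group median of 0.45. Its proximal tubule sum was 9962 CPM against 13579 to 17026 in the other noncystic males, and its distal convoluted tubule sum 2211 CPM against 1008 to 1410. Pkd1KO+ciliaKO male replicate 8 had a median ratio of 0.70 and replicate 6 of 0.63, and both had low proximal tubule sums, 8600 and 7405 CPM against 9605 to 13378 in the other 7. In females Pkd1KO+ciliaKO replicate 1 was highest for 9 of the 10 (median ratio 0.28) and Pkd1KO replicate 5 for 8 (0.30). Whether segment makeup accounts for these libraries was not tested.

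Among all genes, the one whose level followed each enzyme most closely over the 45 mice was named by Pearson's coefficient of log2(CPM + 0.1), given as a description, since the mice share sexes, genotypes and the same few libraries that stood apart. Hk1 and Pkm were each other's closest match, at r = 0.925, and the closest match of Pfkl was Hk1, at 0.880, and that of Pfkp was Pfkl, at 0.812. Pfkm was closest to Lrrc66 (0.847), Aldoa to Klc2 (0.85), Eno1 to Carmil1 (0.832) and Hk2 to Ntrk3 (0.773). Ldha was closest to Blmh, at 0.940 the highest best coefficient of the 10, and Pgk1 had the lowest best coefficient of the 10, at 0.648 with Slc25a5.

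The rest of the pathway was read from a list of 28 further genes, made up of the remaining enzymes, isozymes, regulators of phosphofructokinase, lactate and pyruvate carriers, pyruvate dehydrogenase with its kinases, and hypoxia factors. In Pkd1KO against noncystic males 4 of the 28 were called, 3 lower and 1 higher, where 6.3% of all genes were called, 2.25% lower and 4.05% higher. The median log2 fold change over the 28 was -0.05. The 3 that fell did not overlap between the groups, as 2.1% of all genes did not. Pdha1, the catalytic subunit through which pyruvate enters the mitochondrial cycle, was at 629.6, 709 and 753 CPM in noncystic males and at 423, 552 and 589 CPM in Pkd1KO males, and it fell by 0.39 on the log2 scale (SE 0.072, edgeR adjusted p = 0.00378). Pdk1, a kinase that switches pyruvate dehydrogenase off and is raised by hypoxia, was at 114, 120.2 and 182 CPM in noncystic males and at 64.0, 94.5 and 112 CPM in Pkd1KO males, and it fell by 0.49 (SE 0.115, adjusted p = 0.0161). Pgam2, the muscle-type phosphoglycerate mutase, went from 60.1, 64.7 and 86.9 CPM to 39.5, 48.6 and 58.2 CPM and fell by 0.42 (SE 0.0882, adjusted p = 0.00793). All Pkd1KO males lay under all noncystic males for these genes. The gene that rose was Hkdc1, a minor hexokinase, from 1.81, 2.66 and 2.97 CPM to 2.95, 3.85 and 7.11 CPM (log2 fold change 0.65, SE 0.176, adjusted p = 0.0363). Without the 4 males that stood apart 3 of the 28 were called. Which of the genes above were among them is not given, and the 6.3% belongs to the fit with all mice.

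In females the same comparison had 1 of the 28 called, where 3.34% of all genes were. It was Pdha1, which was at 569.5, 611 and 655 CPM in noncystic and at 447, 519.7 and 586 CPM in Pkd1KO females and fell by 0.24 on the log2 scale (SE 0.0592, edgeR adjusted p = 0.0275). The groups overlapped at the upper end of the Pkd1KO females. Without the noncystic female whose Kif3a went against the label 4 of the 28 were called, Pdha1, Pdk1 and Pgam2 lower and Eno2 higher, and with a single female of 5 others left out the count was 0. The 3.34% belongs to the fit with all mice and not to these counts.

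Against mice that also lost Kif3a, 1 of the 28 was called in males, where 3.77% of all genes were, and 4 in females, where 11.7% were, so that both counts were near the share of all genes. In males it was Pfkfb4, which makes the activator of phosphofructokinase, at 7.16, 10.2 and 12.7 CPM in Pkd1KO and 4.94, 7.38 and 9.48 CPM in Pkd1KO+ciliaKO males (log2 fold change 0.46, SE 0.124, edgeR adjusted p = 0.0454), a call lost when most single mice were left out and without the males that stood apart. In females Pfkfb2, of the same family, was at 11.4, 12 and 14 CPM in Pkd1KO against 13.5, 14.5 and 15.6 CPM in Pkd1KO+ciliaKO mice and was called lower (-0.24, adjusted p = 0.0237). Pdk1 (-0.35, adjusted p = 0.0365) and the pyruvate and lactate carrier Slc16a7 (-0.27, adjusted p = 0.0343) were also lower, and Pdk3 was higher (0.40, adjusted p = 0.0219). Without the Pkd1KO+ciliaKO female against its label 2 of the 28 were called, Pfkfb2 and Pdk3.

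**Figure D5:**
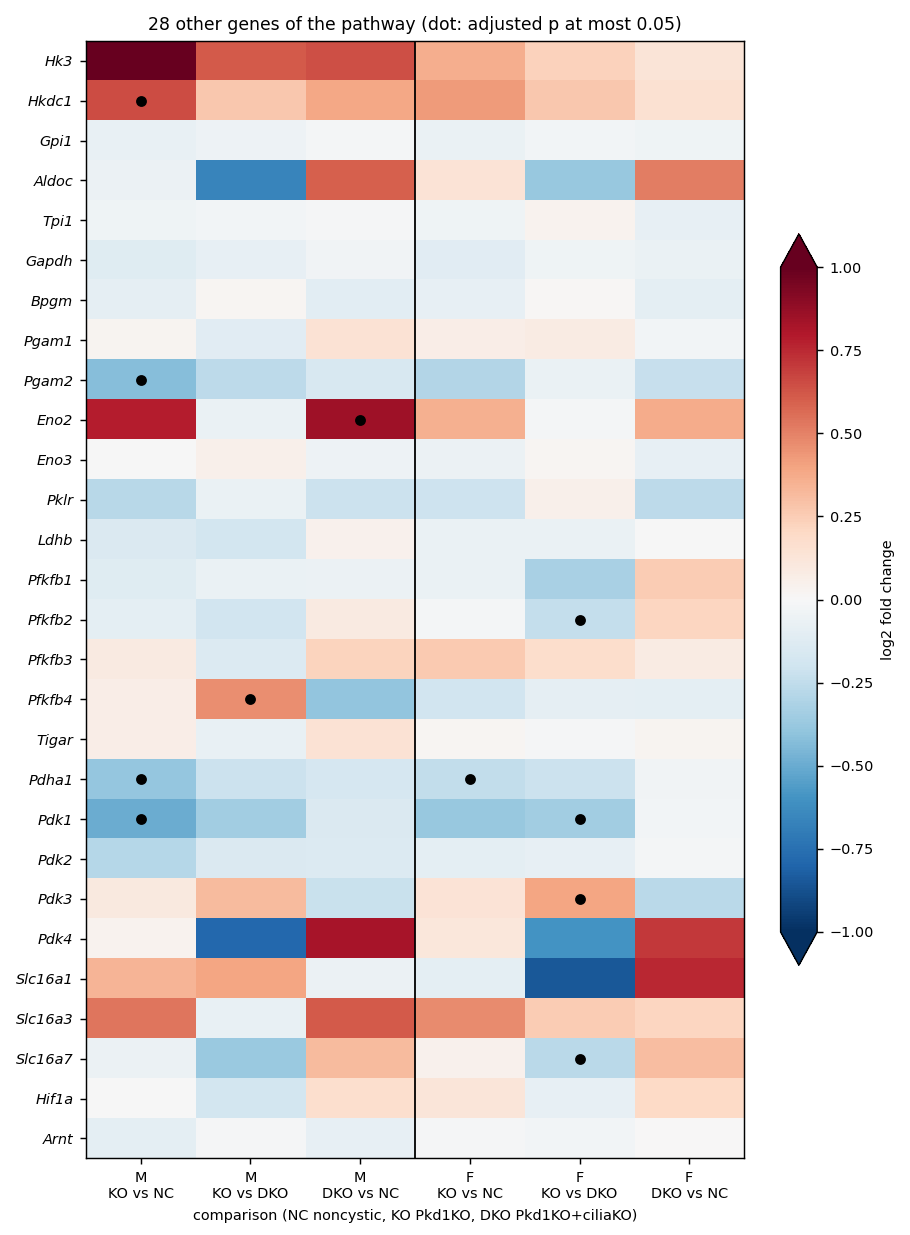
Log2 fold change (colour) of the 28 further genes of the pathway (y axis) in each genotype comparison of males and females (x axis), with a dot on each called value. Pdha1, Pdk1 and Pgam2 are lower and Hkdc1 higher in Pkd1KO against noncystic males, and most of the other genes lie near 0.

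Pkd1KO+ciliaKO against noncystic mice had 1 of the 28 called in males, where 8.89% of all genes were, and 0 in females, where 2.54% were. In males Eno2, the enolase of neurons, was higher, at 1.43, 2.22 and 2.88 CPM against 0.684, 1.04 and 2.00 CPM (log2 fold change 0.85, SE 0.208, edgeR adjusted p = 0.0155), and it made up 0.302% of enolase TPM there. In females 9 of the 28 had an unadjusted p under 0.05, and DESeq2 called 3, with no share of all genes beside either count. Without the libraries in doubt edgeR called 5 in males, Aldoc, Eno2, Pklr, Pdk1 and Pdha1, and 2 in females, Aldoc and Pgam2. The 8.89% and 2.54% belong to the fits with all mice and not to these counts.

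The isozymes that stand in for members were mostly not called in Pkd1KO males. Aldoc was at -0.06 against noncystic males and at -0.66 against Pkd1KO+ciliaKO males (SE 0.197, edgeR adjusted p = 0.0702). Pklr was at -0.27 (adjusted p = 0.119), Ldhb at -0.14 (0.289), Eno3 at -0.00 (0.992) and Eno2 at 0.78 (0.0928) against noncystic males. Hk3, a hexokinase of blood cells, was at 0.0694, 0.295 and 0.457 CPM in noncystic and 0.285, 0.344 and 2.37 CPM in Pkd1KO males (log2 fold change 1.25, SE 0.489, adjusted p = 0.142), and 1 mouse held the value of 2.37. The glycolytic enzyme Gapdh was at -0.12 (adjusted p = 0.339) and the hypoxia factor Hif1a at -0.01 (adjusted p = 0.979) in the same comparison.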

How the data were processed

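TRAP RNASeq of 45 mouse kidneys was analysed from the processed tables. The authors deposited whole-number counts per gene and mouse, without normalization, and 1 TPM table per sex, which holds the protein-coding genes past their minimum of 6 counts in 20% of the mice of that sex. The submitters' processing notes name fastp 0.20.0, STAR 2.7.9, featureCounts 2.0.0 and the GRCm38.p6 build, and strand and multimapping options are not given in the sources used here. The authors' own tests used DESeq2. Of the 55401 gene IDs, 55141 were paired with a symbol through GENCODE on GRCm38.

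Here the count test was edgeR 4.0.16 in R 4.3.3 (TMM, quasi-likelihood), run per sex on each pair of genotypes over the genes of that sex's TPM table (15991 in males, 15968 in females), with Benjamini-Hochberg adjustment over all of them. A fit of all 45 mice (15828 genes) gave the contrast of noncystic males and females and the sex differences. CPM were normalised by TMM over the 45 mice, and isozyme shares were computed from the deposited TPM. Confidence intervals are at 95%. The count test was also run on simulated counts with known changes, drawn from the means and dispersions of these data. The simulation held no libraries that stood apart, so it does not bear on calls that depend on them.

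The members and gene lists were chosen with earlier results of these data known. All 10 members were named. Of the 28 further genes, those called in any comparison within a sex and the isozymes of members were named (a few genes of the list are not reported here and enter none of its counts or the isozyme shares), while Gapdh, Hif1a and the individual marker genes were named after their values were seen. Groups and replicate numbers came from the labels. Alternatives were DESeq2 1.42.0, its size factors in edgeR, no filter, a minimum of 10 counts, the 3 genotypes of a sex in 1 fit, the replicate number as a block, limma 3.58.1 on log2(TPM + 1) and on log2(TPM + 0.1), leaving out libraries in doubt, and leaving out each mouse in turn. Every column of per-sample values was matched to a sample.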

Additional observations from a re-analysis of the deposited data

Results flagged for a closer look

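In 11 of 60 combinations of enzyme and group, 1 mouse lay farther from the rest of its group than Dixon's 95% criterion allows. A single such test on normally distributed values flags about 1 in 20 by chance. Enzymes varied together within mice, so the 60 were not independent, and whether 11 exceeds chance was not tested. Of these 11, 5 belonged to noncystic male replicate 3. In that mouse Hk1 was at 523 CPM while the other noncystic males were at 230.0 to 341, Pfkl was at 149 CPM against 88.7 to 116, Pfkp at 169.7 CPM against 101 to 122, Eno1 at 1028 CPM against 637 to 803 and Pkm at 684 CPM against 299 to 404. Pkd1KO+ciliaKO male replicate 8 had Hk2 at 21.7 CPM against 3.09 to 7.79 in the others, and replicate 6 of the same group had Aldoa at 1276 CPM against 847 to 1057. Among females Pkd1KO+ciliaKO replicate 1 had Pfkl at 158 CPM against 113 to 123 and Eno1 at 908 CPM against 713 to 772. Pkd1KO female replicate 5 had Aldoa at 1218 CPM against 895 to 1036, and noncystic female replicate 3 had Ldha at 626 CPM against 525 to 552. Every flagged value was the highest of its group, and neither Pfkm nor Pgk1 was among them.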

How the results depend on the processing

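For Pkd1KO against noncystic males the count of called enzymes, 1 (Pfkm), became 2 with DESeq2 and 2 with the 3 genotypes in 1 fit, Aldoa joining (adjusted p = 0.00656 and 0.0436), and 0 with limma on log2(TPM + 1) (Pfkm adjusted p = 0.0556) or without the 4 males that stood apart. With each mouse left out in turn it was 1 to 2, and 2 without Pkd1KO male replicate 2 or 3. For Pkd1KO against Pkd1KO+ciliaKO males the count of 1 became 0 with the replicate number as a block (Pfkm at -0.41, adjusted p = 0.0920) and was 1 with every single mouse left out. The replicate numbers do not pair the mice: 7 of 22 male and 6 of 19 female same-numbered pairs had deviations correlated over 0.1, and 3 of 24 males and 3 of 21 females correlated best with their own number. The block changed no other count of called enzymes. For Pkd1KO+ciliaKO against noncystic males DESeq2 gave 1 in place of 0. In females the counts of 0 became 1 with DESeq2, 1 with the 3 genotypes in 1 fit and 3 with limma on either pseudocount (Pfkl, Pfkm and Pkm) for Pkd1KO against Pkd1KO+ciliaKO, and 2 with limma on either pseudocount (Pfkl and Pkm) for Pkd1KO+ciliaKO against noncystic. With single females left out the counts ran from 0 to 2 for Pkd1KO against either other group and stayed 0 for Pkd1KO+ciliaKO against noncystic. For noncystic males against females the count of 1 became 3 without the 6 libraries in doubt. The causes were not tested, beyond the lower number of mice where mice were left out. No called value changed direction. DESeq2's size factors, no filter and a minimum of 10 counts left each count of called enzymes within 1.5 times its value. Leaving out single mice was not run for the fits of 45 mice.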

Other observations

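Beside Ldha, 8 of the 28 further genes of the pathway were called between noncystic males and noncystic females by edgeR, 5 higher and 3 lower in males, where 27.4% of all genes were called. Higher were Tpi1, which interconverts the triose phosphates (793.9 to 966 CPM in males, 687 to 799 in females, log2 difference 0.28, adjusted p = 0.00052), Pdk3 (0.54), Pfkfb4 (0.50), Bpgm (0.20) and Pdha1 (0.19). Lower were the carrier Slc16a7 (-0.46, adjusted p = 0.00646) and the phosphoglycerate mutases Pgam2 (-0.29) and Pgam1 (-0.17). The ranges of both sexes overlapped for each of the 8. Tpi1, Bpgm and Pgam1 were named after their values were seen.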
